A study of Thermothelomyces thermophilus ATCC 42464 with 8 samples.

Results

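Isolated H3K9me3 peaks are short peaks that stood alone in chromatin where the same library had no other peak nearby. They were selected on peak positions in the list of WT replicate 2, as peaks shorter than 10000 bp with at least 10000 bp to the next peak of that list on either side, outside the outermost 100000 bp of each chromosome. The rule was met by 72 of the 3329 peaks of the list. These 72 peaks made up 2.16% of the peaks and 0.313% of the peak bases.

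The WT strain *Myceliophthora thermophila* ATCC 42464 and the ΔlaeA strain, in which the gene of the putative methyltransferase LaeA is deleted, were grown on 1× Vogel's salts with 2% glucose at 45 °C for 24 h. Chromatin was immunoprecipitated with antibody to H3K9me3 in 2 libraries per strain, and each ChIP library has its own MACS2 peak list. The sample labels name antibody ab8898 for WT and ab8902 for ΔlaeA, whereas the paper's methods name ab8898 only. The series description names another mark, H3K79me3. Which of these is right is not known, so a difference of antibody and a difference of strain cannot be told apart. Nothing in the labels says that replicates came from separate cultures.

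H3K9me3, trimethylated lysine 9 of histone H3, marks constitutive heterochromatin. In *Neurospora crassa*, a relative of *M. thermophila*, the mark is laid down by the histone methyltransferase DIM-5 and bound by HP1, and it covers centromeres, chromosome ends and AT-rich relics of repeats in broad domains. LaeA was first known in *Aspergillus* as a regulator of secondary metabolism.

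The lists differ in how they were called, which bears on every comparison. A q under 0.05 was given to each of the 3329 WT replicate 2 peaks, to 0 of 5846 in WT replicate 1 and to 4 of 3054 in ΔlaeA replicate 1. The WT replicate 1 peaks covered 6.43% of the genome and the ΔlaeA replicate 1 peaks 2.55%, against 33.0% for WT replicate 2. The ΔlaeA replicate 2 list as held here ends at position 3058073 of chromosome 1, so it bears on the few members in that stretch. Read totals were not used here, and the depth is unknown. The 95% intervals given below are Wilson intervals that cover counting error only. Peaks of 1 library are not replicates, so no test was run on shares of peaks.

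The isolated peaks were short and weak in the library that defined them. Their length ranged from 230 to 3168 bp with a median of 384.5 bp, and 65 of the 72 were under 1000 bp. The other 2728 peaks under 10000 bp away from the chromosome ends had a median length of 1381.5 bp. Fold enrichment, the ratio of the pileup at the summit to the local background, ranged from 1.20 to 2.83 with a median of 1.51 in the isolated peaks, against a median of 2.01 in the other short peaks. Only 2 isolated peaks (2.78%) reached a fold enrichment of 2, against 51.0% of the other short peaks. The pileup, the number of fragments over the summit, ranged from 134 to 279 with a median of 157 over a background of 97.9 to 129. The −log10 q had a median of 5.99 in the isolated and 18.9 in the other short peaks. These values come from the list that chose the members and are a description.

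**Figure D1:**
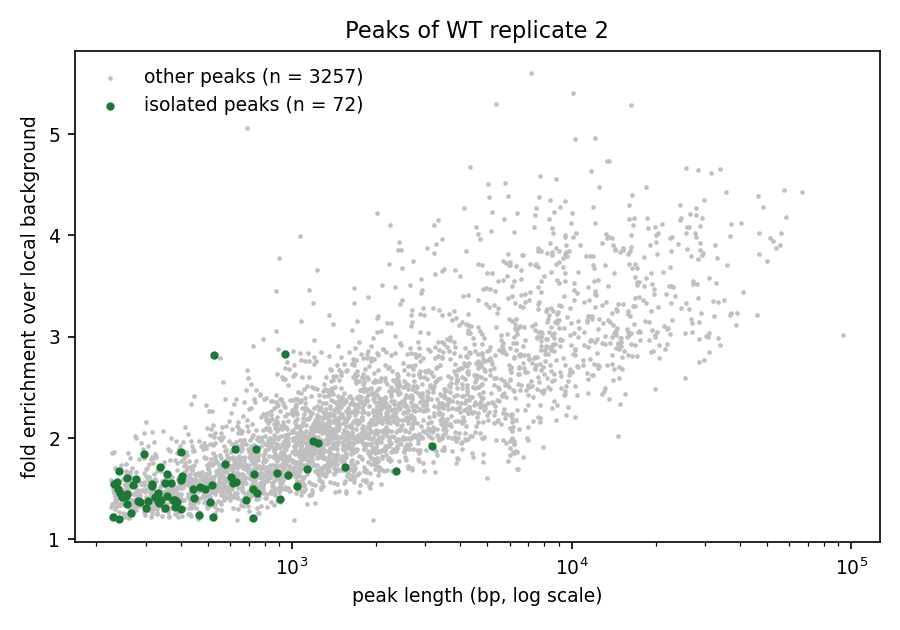
Fold enrichment against peak length on a log scale for each peak of WT replicate 2, with the 72 isolated peaks in green and the others in grey. The isolated peaks lie mostly among the short and weak peaks, where many other peaks lie too, and only 2 of them lie above a fold enrichment of 2.

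The number of isolated peaks depended on the gap limit, with 124 at 5000 bp and 46 at 20000 bp, and little on the other limits. The gap on the nearer side ranged from 11174 to 417482 bp with a median of 26704 bp, and 13 isolated peaks had at least 100000 bp free on both sides. The members nearest to the gap limit were a pair on chromosome 1, from 238131 to 238481 and from 249656 to 250123, which are 11174 bp apart, with fold enrichments of 1.31 and 1.52. The peaks just outside it had gaps of 9900 bp (chromosome 2 from 3563190, fold enrichment 1.55) and 9766 bp (chromosome 6 from 168692, fold enrichment 1.51). The length limit left out 1 peak, on chromosome 2 from 1002480 to 1015625, which had a length of 13146 bp and a fold enrichment of 2.50, whereas the longest members had 3168 and 2354 bp. No peak was left out by the chromosome ends alone. For 23 of the 72 members the nearest peak was itself isolated. The distance to the nearest peak of 10000 bp or more had a median of 112842 bp, and the shortest was 11659 bp.

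All 7 chromosomes held isolated peaks. Chromosome 1 held 20, chromosome 2 held 12, chromosome 7 held 11, chromosome 6 held 10, chromosomes 3 and 4 held 8 each and chromosome 5 held 3. Per Mb outside the chromosome ends, the density was 1.93 over the genome, lowest on chromosome 5 (0.724) and highest on chromosome 7 (2.81). Chromosome 5 had 563 peaks in all, more than chromosome 7 with 289. The rule requires 10000 bp free of peaks on either side, so a chromosome dense in peaks leaves less room for isolated ones. The densities therefore follow in part from the rule.

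A pair of peaks on chromosome 2 stood above the rest in enrichment. The first ran from 1390359 to 1391306, with a pileup of 279 over a background of 97.9 (fold enrichment 2.83, −log10 q 48.4). It overlapped no gene body, and the nearest gene, MYCTH_2300626, lay 273 bp away. The second ran from 550727 to 551254, with a pileup of 278 (fold enrichment 2.82, −log10 q 48.0), and it directly adjoined MYCTH_2300170. The next member, on chromosome 1 from 764797, had a fold enrichment of 1.97, so a gap separates this pair from the other 70. Neither was found in a replicate 1 list, and neither had a peak of those lists within 10000 bp of its summit.

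The other 8 of the 10 members with the highest fold enrichment ranged from 1.74 to 1.97. They lay on chromosome 1 from 764797 to 765983 (1.97), on chromosome 4 from 817087 to 818323 within MYCTH_2306033 (1.95), and on chromosome 2 from 2938720 to 2941887 over MYCTH_100608 and MYCTH_92805 (1.92). A pair had the same pileup of 186 and fold enrichment of 1.89, on chromosome 7 from 2947744 to 2948370, 262 bp from MYCTH_2312764, and on chromosome 3 from 726351 to 727094 over MYCTH_68404. The remaining 3 lay on chromosome 3 from 2400682 to 2401082 (1.86) and on chromosome 7 from 868348 to 868642 (1.84) and from 882257 to 882832 (1.74). At the other end, the lowest −log10 q values were 1.34 on chromosome 3 from 3346196 to 3346436 in MYCTH_2304984, 1.50 on chromosome 7 from 2260000 to 2260727 in MYCTH_2312351 and 1.52 on chromosome 1 from 7201691 to 7201920 in MYCTH_2297869. Each of these 3 weakest members lay whole within a gene body.

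Few isolated peaks were found again in the lists of replicate 1. A peak counted as found when it shared at least 1 bp with a peak of the other list. In WT replicate 1, 9 of 72 were found (12.5%, interval 6.72 to 22.1%), against 60.4% of all WT replicate 2 peaks. In ΔlaeA replicate 1, 4 were found (5.56%, interval 2.18 to 13.4%), against 39.1% of all peaks. In at least 1 of both lists, 11 were found (15.3%), against 65.8%, and in both lists 2 were found (2.78%), against 33.7%. In each case the share of the isolated peaks was far below that of the list as a whole. The rule places members where replicate 1 peaks are sparse. At 2000 bp or more from the summit, WT replicate 1 peaks covered 0.421% of positions around members and 12.95% around the other short peaks. Fewer overlaps by position alone follow from that, so this contrast comes in part from the rule. How large that part is was not tested. A difference between the strains in these shares was not tested.

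**Figure D2:**
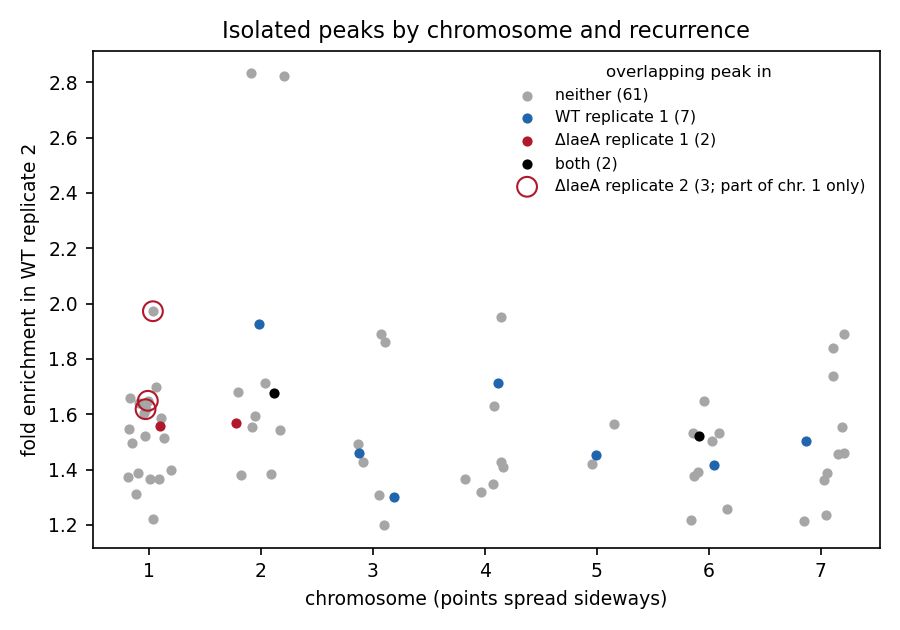
Fold enrichment in WT replicate 2 of each isolated peak by chromosome, coloured by whether a peak of WT replicate 1, of ΔlaeA replicate 1, of both or of neither overlaps it, with rings for ΔlaeA replicate 2. The 61 grey points were found in neither replicate 1 list and include the 2 peaks above a fold enrichment of 2 on chromosome 2.

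Shorter peaks have fewer bases to share, so shares were also read within classes of length. Up to 300 bp, 1 of 19 isolated peaks was found in WT replicate 1 (5.26%), against 34.7% of 124 other short peaks. Over 300 and up to 600 bp it was 2 of 32 (6.25%), against 36.1% of 449, and over 600 and up to 1000 bp 2 of 14 (14.3%), against 45.5% of 440. Over 1000 bp it was 4 of 7 (57.1%, interval 25.05 to 84.2%), against 67.3% of 1715. The isolated peaks were thus found less often in each class, and in the longest class the interval includes the value of the other peaks. Among peaks of at most 628 bp and a fold enrichment of at most 1.64, the upper quartiles of the members, 3 of 46 isolated peaks (6.52%) and 143 of 424 others (33.7%) were found in WT replicate 1. In ΔlaeA replicate 1 the same peaks gave 4.35% and 12.5%. Matching on length and fold enrichment does not match the density of replicate 1 peaks nearby, which was lower around the members.

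**Figure D3:**
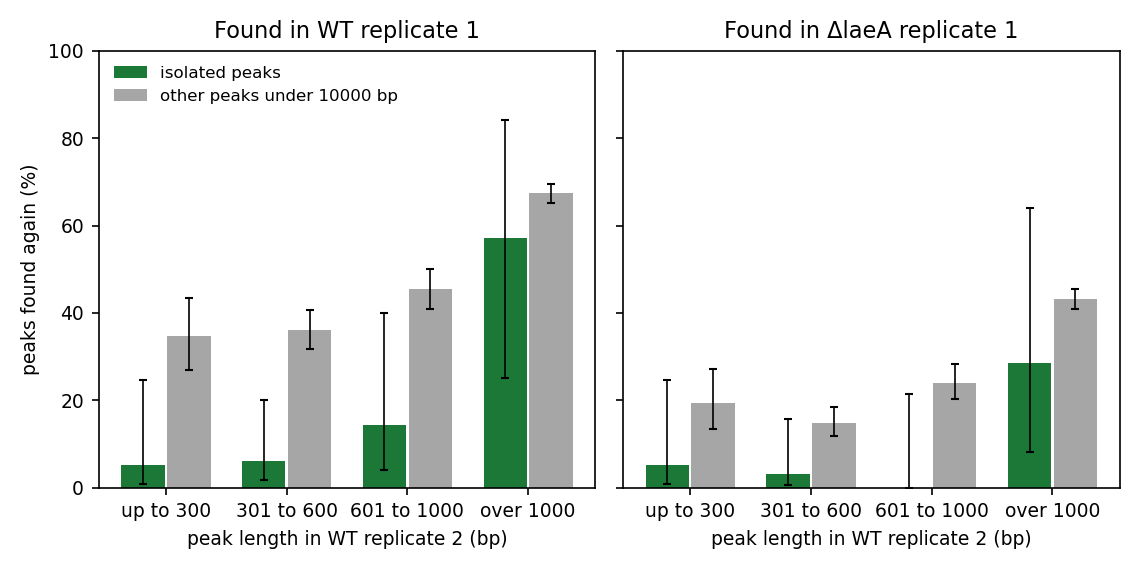
Share of WT replicate 2 peaks overlapped by a peak of WT replicate 1 (left) or ΔlaeA replicate 1 (right) in 4 classes of peak length, for isolated peaks (green) and the other peaks under 10000 bp (grey), with 95% Wilson intervals as bars. The green bars are below the grey ones in each class. In the class over 1000 bp, with 7 isolated peaks, the intervals overlap widely. The intervals of ΔlaeA replicate 1 overlap in all 4 classes. Over 600 and up to 1000 bp that overlap is slight, with 0 to 21.5% for isolated and 20.3 to 28.3% for other peaks.

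The members found in both replicate 1 lists were longer than most members. The first, on chromosome 2 from 3336500 to 3338853, overlaps 3 genes, MYCTH_92725, MYCTH_2125592 and MYCTH_2301712, at a fold enrichment of 1.68 (−log10 q 10.2). For each list, only the peak sharing most bases with the member was compared. The WT replicate 1 peak so chosen ran from 3337220 to 3337730 (−log10 p 1.45) and the ΔlaeA replicate 1 peak from 3338558 to 3338944 (−log10 p 2.01). These peaks touched different parts of the member. The second, on chromosome 6 from 2123757 to 2124803, lay within MYCTH_2310513 with a fold enrichment of 1.52. The WT replicate 1 peak compared there ran from 2124234 to 2124681 (−log10 p 1.93) and the ΔlaeA replicate 1 peak from 2123930 to 2124120 (−log10 p 1.75), again without a shared base. Any further replicate 1 peaks on these members were not compared.

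The longest member, on chromosome 2 from 2938720 to 2941887 (fold enrichment 1.92, pileup 217), was found in WT replicate 1 alone, with 6 peaks of that list and 0 peaks of ΔlaeA replicate 1 within 10000 bp of its summit. The third longest, on chromosome 4 from 3541172 to 3542715 overlapping MYCTH_2307313, shared 180 bp with a WT replicate 1 peak. Where several peaks of a list overlapped a member, only the one sharing most bases with it was read. The strongest replicate 1 peak so read lay on chromosome 6 from 3149063 to 3150365, with a −log10 p of 4.09 and a −log10 q of 0.708. The member beneath it, from 3150087 to 3150409, had a fold enrichment of 1.42 and lay 1050 bp from the nearest gene, MYCTH_2310870. No peak of the whole WT replicate 1 list reached a q of 0.05. The ΔlaeA replicate 1 peaks read at the 4 members found there all had a −log10 q of 0. Members found in ΔlaeA replicate 1 alone lay on chromosome 1 from 4825414 to 4825764 and on chromosome 2 from 515234 to 515469, and both overlapped no gene.

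The stretches around the isolated peaks were also poor in replicate 1 peaks. The rule used no replicate 1 list, but it required these stretches to hold no other WT replicate 2 peak. The other short peaks each had one less than 10000 bp away. Of the replicate 1 peaks not isolated in their own lists, 86.5% in WT and 82.0% in ΔlaeA overlapped a WT replicate 2 peak. The contrast below therefore follows in part from the rule. No WT replicate 1 peak lay within 10000 bp of the summit at 48 of the 72 members (66.7%), against 8.76% of the other short peaks. No ΔlaeA replicate 1 peak did so at 58 members (80.6%), against 17.1%. At 43 members (59.7%) neither list had one, against 6.60% of the other short peaks. Peaks of the replicate 1 lists that were there lay close to the member. At 2000 bp or more from the summit, WT replicate 1 peaks covered on average 0.421% of the positions and ΔlaeA replicate 1 peaks 0.0842%. At the summit itself they covered 3 of 72 members each (4.17%), and 500 bp to the left 6 (8.33%) and 4 (5.56%). Around the other short peaks the WT replicate 1 values were 20.2% at the summit and 12.95% on average at 2000 bp or more.

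**Figure D4:**
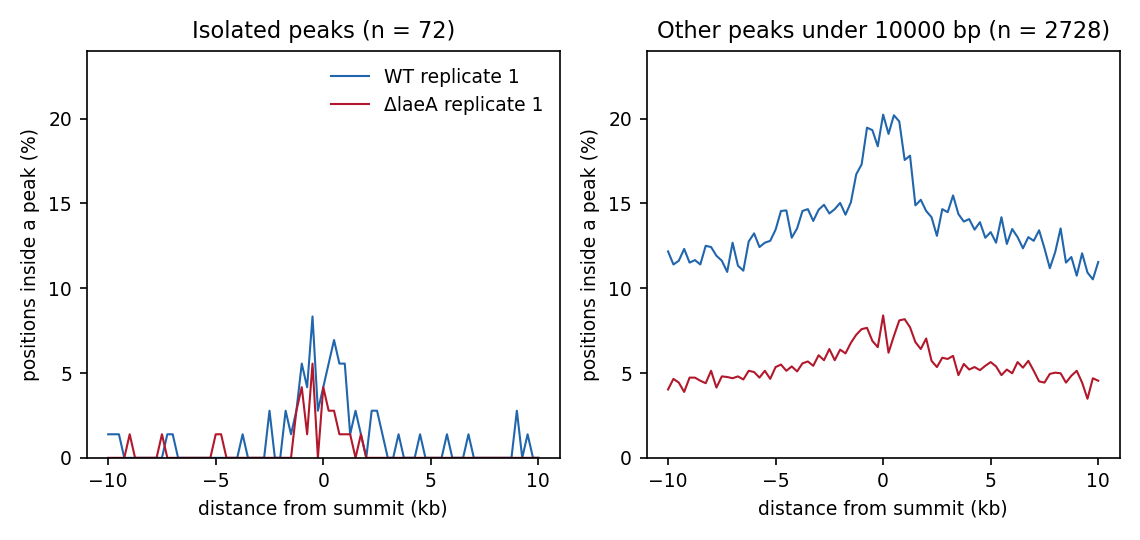
Share of positions inside a peak of WT replicate 1 (blue) or ΔlaeA replicate 1 (red) at each distance from the summit in steps of 250 bp, for the 72 isolated peaks (left) and the 2728 other short peaks (right), on the same scale. Around isolated peaks both lines are at most 2.78% beyond 2 kb and rise within about 1 kb of the summit, to 8.33% in WT and 5.56% in ΔlaeA, whereas the lines around the other peaks stay raised over the whole window.

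Up to position 3058073 of chromosome 1, 8 isolated peaks could be read in ΔlaeA replicate 2, and 3 were found there (37.5%, interval 13.7 to 69.4%), against 84% of the 200 WT replicate 2 peaks of that stretch. Most of those 200 were longer and stronger. Among peaks of the stretch with at most 628 bp and a fold enrichment of at most 1.64, 1 of 6 isolated peaks (16.7%) was found. Of the other short peaks within these limits, 7 of 21 (33.3%) were found. None of the 8 was found in WT replicate 1 or in ΔlaeA replicate 1, against 53.5% and 29% of the 200 peaks. A count of 0 in 8 allows a share of up to 37.5%, the limit being set here at 3 peaks and not by the Wilson method, so a share in ΔlaeA replicate 1 below that of the list was not detectable. The peak from 764797 to 765983 had a pileup of 194 and a fold enrichment of 1.97 in WT replicate 2, and the ΔlaeA replicate 2 peak from 764720 to 766011 had 219 and 2.27. The peak from 1411167 to 1411772 had 159 and 1.62, and its ΔlaeA counterpart from 1411088 to 1411831 had 243 and 2.51. The peak from 2078243 to 2078601 had 162 and 1.65, and its counterpart from 2078184 to 2078698 had 202 and 2.097. Each of the 3 ΔlaeA peaks covered its WT peak whole and carried a −log10 q of at least 20.1, where WT replicate 2 had 16.5, 7.61 and 8.26. Pileup and fold enrichment belong to their own lists, so the higher values in ΔlaeA replicate 2 are side by side and not a test.

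The 3 members found in ΔlaeA replicate 2 were the 3 of the 8 that overlapped no gene body. They were also the 3 at the lowest background of the list, 97.9, and those with the highest fold enrichments of the 8, so that these features cannot be told apart. Their nearest genes were MYCTH_2122065 (1463 bp), MYCTH_2313350 (1927 bp) and MYCTH_2295064 (267 bp). The other 5 lay whole within MYCTH_2294035, MYCTH_2294062, MYCTH_2085599, MYCTH_2294303 and MYCTH_2295272, with fold enrichments of 1.37, 1.31, 1.52, 1.55 and 1.49, and the nearest ΔlaeA replicate 2 peak was between 7200 and 41903 bp away. This split among 8 peaks was noticed after the values were seen. By the same rule, 3 of the 164 ΔlaeA replicate 2 peaks were isolated in their own list. Of these, 2 were the counterparts from 764720 and 1411088, and the third, from 230581 to 230931 (fold enrichment 1.65), overlapped no WT replicate 2 peak. The laeA gene itself, MYCTH_2294559, lies on chromosome 1 from 1373921 to 1375913, and the nearest isolated peak, from 1411167, was 35254 bp away.

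Most isolated peaks lay in genes. Gene positions are those of RefSeq assembly ASM22609v1, whereas the peak lists name no build, and the last gene ended before the largest peak end on all 7 chromosomes. A gene body was overlapped by 55 of the 72 isolated peaks (76.4%, interval 65.4 to 84.7%), against 61.2% of all WT replicate 2 peaks, although the isolated peaks were shorter. Among the 40 members with a −log10 q of at least 5 the share was 62.5%, near that of the list, so the excess lay with the weaker members. The summit was inside a gene body at 52 (72.2%), against 52.5% of the other short peaks, and 45 members lay whole within 1 gene. Gene bodies took up 46.5% of the genome, a median of 65.7% of the 10000 bp on either side of an isolated summit and a median of 43.0% around the other short peaks. The isolated peaks thus sat in stretches richer in genes than those around the other peaks. Their placement against that local density was not tested. The 17 members without a gene lay at most 2433 bp from one.

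Members inside and outside genes differed in their local background. The lowest background of the list, 97.9, is the floor that MACS2 sets from the genome-wide level, and a background within 0.1% of it was counted as the lowest. Of the 17 members with no gene, 13 had the lowest background, against 5 of the 55 in genes. All 23 members with a fold enrichment of at most 1.4 overlapped a gene, and both above 2 did not. The median fold enrichment was 1.46 in genes and 1.63 outside, and the median −log10 q was 4.71 and 7.82. The split by background was seen in the other short peaks too. There 35.0% of peaks at the lowest background and 80.6% of those above it overlapped a gene, so this split is not particular to isolated peaks. The split by fold enrichment was weaker there, with 71.6% in genes at up to 1.4 and 53.6% above 2. Of the 18 members at the lowest background 0 were found in WT replicate 1, which by the limit of 3 peaks allows a share of up to 16.7%, and 2 in ΔlaeA replicate 1. Of the 54 above it, 9 and 2 were found. Among the other short peaks, 51.0% at the lowest background and 61.9% above it were found in WT replicate 1, and 34.0% and 34.6% in ΔlaeA replicate 1. A difference between isolated and other peaks in this split was not tested.

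**Figure D5:**
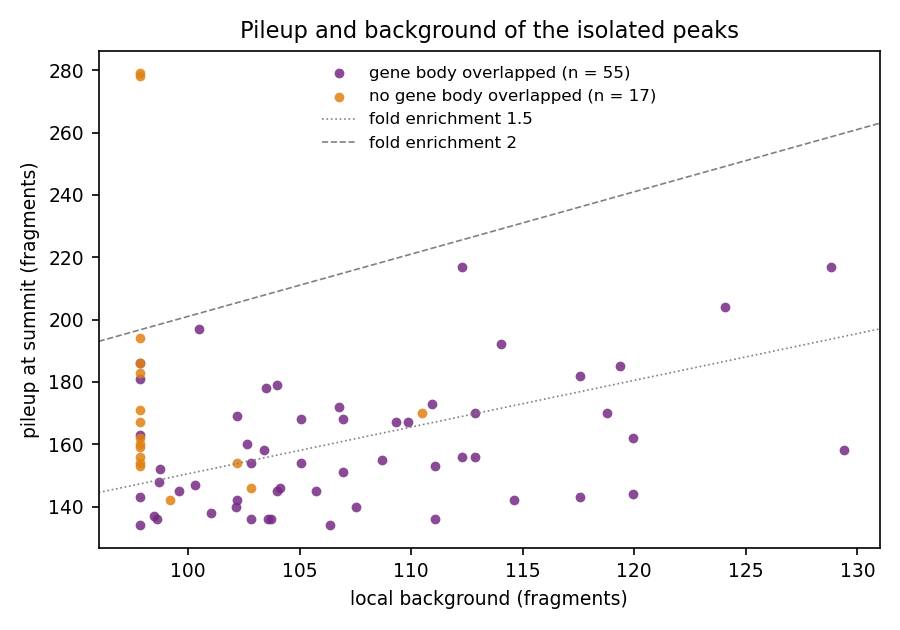
Pileup at the summit against local background, both in fragments, for the 72 isolated peaks in WT replicate 2, with those that overlap a gene body in purple and the others in orange, and lines for fold enrichments of 1.5 and 2. The orange points stand mostly at the lowest background of 97.9, where 13 of 17 lie, and the purple points spread up to 129.

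The members overlapped 59 genes, with a median gene length of 2125 bp against 1733 bp over all 9097 protein-coding genes. A WT replicate 1 peak lay on 12 of the 59 genes (20.3%), against 63.4% of all genes with a WT replicate 2 peak and 19.3% of all genes. A ΔlaeA replicate 1 peak lay on 6 (10.2%), against 32.9% and 8.89%. Neither list had a peak on 44 of the 59 (74.6%), against 31.8% of genes with a WT replicate 2 peak and 79.2% of all genes. These shares were near those over all genes, so they are not a result about the 59. WT replicate 1 alone had a peak on 9, ΔlaeA replicate 1 alone on 3 and both on 3. Over all 9097 genes these counts were 1085, 139 and 670. Over the 2261 genes with a WT replicate 2 peak they were 799, 109 and 634. The 3 with both were MYCTH_2125592, MYCTH_2301712 and MYCTH_2310513, which lie at the members found in both lists. The 3 with ΔlaeA replicate 1 alone were MYCTH_2107104, MYCTH_2306033 and MYCTH_2310644. These genes were named after their values were seen, as were those of the next paragraph.

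The gene table holds no product names, and the study's annotation held here describes few of the 59 genes. One is MYCTH_2310888, which the study names Sec2, known in yeast as the exchange factor of the secretory Rab GTPase Sec4. It held a member on chromosome 6 from 3172411 to 3172692 with a pileup of 136 and a fold enrichment of 1.38, found in neither replicate 1 list. MYCTH_2107104, described as a zinc-binding alcohol dehydrogenase, held a member on chromosome 1 from 5150348 to 5151232 with a fold enrichment of 1.66. MYCTH_115935, a glycosyltransferase of family 90, held one on chromosome 3 from 1329006 to 1329449 (1.49). MYCTH_2067210, a cytochrome b5, held one on chromosome 5 from 3103988 to 3104233 (1.42), and MYCTH_2029356, with a di-copper centre, one on chromosome 7 from 3163685 to 3164066 (1.39). None of these 5 members was overlapped by a replicate 1 peak. No isolated peak lay within 2000 bp of 7 genes chosen from those the study follows, namely laeA, pck, fbp, cre-1 and the 3 grf genes. Members overlapped only 59 of all 9097 protein-coding genes, so this absence is not a result about these 7 genes. The nearest was laeA, followed by pck (86214 bp), which encodes a gluconeogenic carboxykinase.

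Few peaks of the replicate 1 lists, isolated or not, lay on isolated peaks of WT replicate 2. The 72 members held only 39962 bp, 0.313% of the peak bases of WT replicate 2, and low counts go with so small a target. By the same rule, 189 of the 5846 WT replicate 1 peaks and 188 of the 3054 ΔlaeA replicate 1 peaks were isolated in their own lists. Of these, 2 in each list lay on a member. Over the whole lists, 14 WT replicate 1 peaks and 5 ΔlaeA replicate 1 peaks did. The share on a member was thus higher among the isolated peaks, on counts of 2. Of the isolated WT replicate 1 peaks, 58 (30.7%) overlapped any WT replicate 2 peak, against 86.5% of the other peaks of that list. Of the 188 isolated ΔlaeA replicate 1 peaks, 141 did so, against 82.0% of the others. The difference was not tested.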

How the data were processed

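The members, classes and alternatives were chosen with earlier results of these data known. Per the labels and methods, the authors trimmed reads and aligned them (Bowtie2). Peaks were then called from uniquely placed reads (MACS2) in 4 ChIP libraries separately. The submitters' processing notes give Bowtie2 2.3.4.3 and MACS2 2.1.2, whereas the paper's methods give other versions of both. Which versions made the lists is not known. The deposited pileup is a signal, the fragment coverage at the summit, and is not a whole number in the replicate 1 lists. The deposited fold enrichment is a ratio to local background with 1 added to each, from which the background was computed. The deposited −log10 p and −log10 q are those of MACS2. The headings of both columns were lost. The Poisson −log10 p recomputed from pileup and background differed by less than 0.01 in at least 99.4% of entries of each list. Entries of 1 interval in the replicate 1 lists were joined with the highest scores.

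Isolation was computed from positions, with chromosome ends taken as the largest peak end over all lists. Overlap needed 1 bp. Peaks described singly were the 10 of highest fold enrichment, the 3 longest, the 3 of lowest −log10 q, those found in both replicate 1 lists and those of the covered part of chromosome 1. Functional word counts were not run, since product names were not held, and upstream regions were not assigned for want of strand. No genome sequence was used here. The code, tested on 419 simulated peaks, found all 60 planted isolated peaks and all 18 planted overlaps. Python 3.11.15, numpy 2.4.6, pandas 2.3.3 and scipy 1.17.1 were used.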

Additional observations from a re-analysis of the deposited data

How the results depend on the processing

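The number of isolated peaks moved with the gap, to 124 at 5000 bp and 46 at 20000 bp. It was 72 with peaks under 5000 bp and 50 when other WT replicate 1 peaks had to be as far away. The share found in WT replicate 1 was 6.94% at an overlap of 200 bp, 20.8% for a peak within 500 bp and 19.4% at a gap of 5000 bp. An overlap of 200 bp gave 1.39% found in ΔlaeA replicate 1 and 6.94% in either list, and a peak within 500 bp gave 13.9% and 29.2%. Summits within 500 bp and gaps of 20000 bp each left 0% found in both lists, and the 2 members with a fold enrichment of at least 2 gave 0% in each count. In at least 1 list, leaving out 1 replicate gave 5.56% without WT replicate 1 and 12.5% without ΔlaeA replicate 1. Equal numbers of replicate 1 peaks gave 8.33% found in WT replicate 1. Genes were overlapped by 88.9% of members with 1000 bp on either side of the gene, 62.5% of those with a −log10 q of at least 5 and, chosen after the data were examined, 27.8% of those at the lowest background. Of 53 alternative values for 7 results, 37 stayed within the interval or 1.5 times the main value, 16 moved and 0 reversed. Apart from the changed numbers of peaks that each setting leaves by construction, the cause was not tested. No paired analysis was possible because the shares come from no test between groups and only 1 replicate number has lists of the whole genome for both strains. The different cut-offs of the lists and the unknown depth limit each share found again.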
